A study of Mus musculus with 2 samples.

Results

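Follicular-helper-like CD4 T cells were taken from 2 droplet libraries of mouse spleen cells as 74 of 1347 Foxp3-negative CD4 T cells, out of 28962 barcodes in all. A cell was a member when it held at least 2 UMIs (unique molecular identifiers, 1 per captured transcript) of Pdcd1, Cxcr5, Sostdc1, Il21 and Tox2 together. Before that sum, a barcode had to hold at least 1000 UMIs with at most 10% on mitochondrial genes, at least 1 UMI of Cd3d, Cd3e or Cd3g and of Cd4, and none of Cd8a, Cd8b1, Cd79a or Foxp3. The ALLO library came from wild-type C57BL/6 recipients grafted at weeks 0 and 5 with tail skin. The donors, C57BL/6-Tg(HLAA2.1)1Enge/J mice, carry a human HLA-A2 transgene. The SYN library came from C57BL/6 recipients grafted in the same way with skin of wild-type C57BL/6 donors. How many animals each library pooled was not given. Spleens were taken 4 weeks after the second graft, frozen, thawed and passed over a dead cell removal column. ALLO held 45 members and SYN held 29.

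Follicular helper T cells are the CD4 T cells that enter B cell follicles and help B cells switch isotype and mature their antibodies. Their entry rests on the chemokine receptor CXCR5 and loss of the T zone and egress receptors, and their state on the transcription factor BCL6. They signal to B cells through CD40 ligand, ICOS, interleukin 21 and interleukin 4, and carry the inhibitory receptor PD-1, encoded by Pdcd1, at high density. The series asks how antibodies to HLA arise after such grafts, and T cell dependent antibody responses draw on this T cell state.

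Promoters of 4 genes that marked these cells are shown because NFAT factors, which T cell receptor signals activate, bind a short core that can be looked for in them. They are RefSeq windows on GRCm38.p6, from 250 bases before to 50 after the annotated start, written 5′ to 3′ along the gene. Pdcd1 (chr1:94052504-94052803, minus strand) and Il21 (chr3:37232587-37232886, minus strand) are genes of the rule. Tigit (chr16:43664135-43664434, minus strand) encodes an inhibitory receptor, and Cebpa (chr7:35119043-35119342, plus strand) a transcription factor best known from myeloid cells. Capitals mark the NFAT core GGAAA on either strand, so TTTCC on the strand shown.
Pdcd1: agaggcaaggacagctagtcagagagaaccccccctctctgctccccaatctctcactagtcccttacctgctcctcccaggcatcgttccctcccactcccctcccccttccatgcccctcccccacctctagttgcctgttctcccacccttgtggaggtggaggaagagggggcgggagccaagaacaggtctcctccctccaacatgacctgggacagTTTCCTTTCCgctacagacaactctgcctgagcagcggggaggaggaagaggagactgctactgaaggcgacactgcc
Il21: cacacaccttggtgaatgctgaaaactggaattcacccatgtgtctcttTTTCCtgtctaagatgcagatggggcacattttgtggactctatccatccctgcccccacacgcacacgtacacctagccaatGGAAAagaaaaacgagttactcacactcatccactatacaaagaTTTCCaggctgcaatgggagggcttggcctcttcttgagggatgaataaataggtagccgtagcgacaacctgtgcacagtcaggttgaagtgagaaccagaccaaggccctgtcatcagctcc
Tigit: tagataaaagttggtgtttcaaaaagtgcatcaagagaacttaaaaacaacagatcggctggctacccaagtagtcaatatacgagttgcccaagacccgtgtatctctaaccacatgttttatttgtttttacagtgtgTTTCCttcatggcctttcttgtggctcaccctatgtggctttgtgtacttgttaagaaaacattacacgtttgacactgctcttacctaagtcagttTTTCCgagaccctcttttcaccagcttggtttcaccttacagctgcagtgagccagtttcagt
Cebpa: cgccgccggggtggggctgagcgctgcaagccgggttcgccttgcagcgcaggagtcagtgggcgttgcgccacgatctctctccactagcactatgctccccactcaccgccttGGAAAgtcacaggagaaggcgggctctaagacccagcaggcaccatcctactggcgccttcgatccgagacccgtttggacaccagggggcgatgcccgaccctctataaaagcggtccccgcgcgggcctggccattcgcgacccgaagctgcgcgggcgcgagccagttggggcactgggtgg
Pdcd1 held 2 such cores, Il21 held 3, Tigit held 2 and Cebpa held 1. The core is short, and 61.3% of all 32851 promoters of this length in the table held at least 1, so the matches describe these windows only.

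The ALLO library held 39476214 UMIs over 11185 barcodes and the SYN library 45435231 over 17777. Of these, 9792 ALLO and 11198 SYN barcodes passed the depth and mitochondrial limits, and 528 and 819 were Foxp3-negative CD4 T cells. Members held 272168 UMIs in ALLO, with a median of 4009 per cell, and 163668 in SYN, with a median of 5541. Marker-negative cells, those of the same gate with a rule gene sum of 0, numbered 450 in ALLO and 750 in SYN, with medians of 4205 and 4065.5 UMIs. The libraries shared 264 barcodes, none of them a member in both, and 1 ALLO member carried a barcode that was also in the SYN list. Each group was 1 library, so no difference had a replicate check and none was tested. The graft group and the library cannot be told apart. Brackets give exact 95% intervals (Clopper-Pearson for shares, Poisson for sums, conditional for ratios), which cover counting error only and are too narrow where 1 cell holds many UMIs of a gene.

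Members made up a larger share of Foxp3-negative CD4 T cells in ALLO than in SYN. They were 45 of 528 in ALLO, 8.52% (6.28 to 11.2%), and 29 of 819 in SYN, 3.54% (2.38 to 5.05%), a ratio of 2.41 (1.48 to 3.98). Over all passing barcodes the shares were 0.460% in ALLO and 0.259% in SYN, and their ratio was 1.77 (1.09 to 2.94). The CD4 gate itself took a smaller share of passing barcodes in ALLO, with a ratio of 0.737 (0.660 to 0.823). By the median the SYN members were the deeper cells, while all cells of the CD4 gate had medians of 4195.5 UMIs in ALLO and 4090 in SYN. With every cell thinned to 2000 UMIs before the gate the shares were 4.44% in ALLO and 2.20% in SYN. Their ratio was then 2.02 (0.907 to 4.63), an interval that includes 1. Leaving Sostdc1 out of the sum gave a ratio of 2.19 (1.33 to 3.66), and leaving out Cxcr5, which B cells also express, gave 2.56 (1.49 to 4.51).

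**Figure D1:**
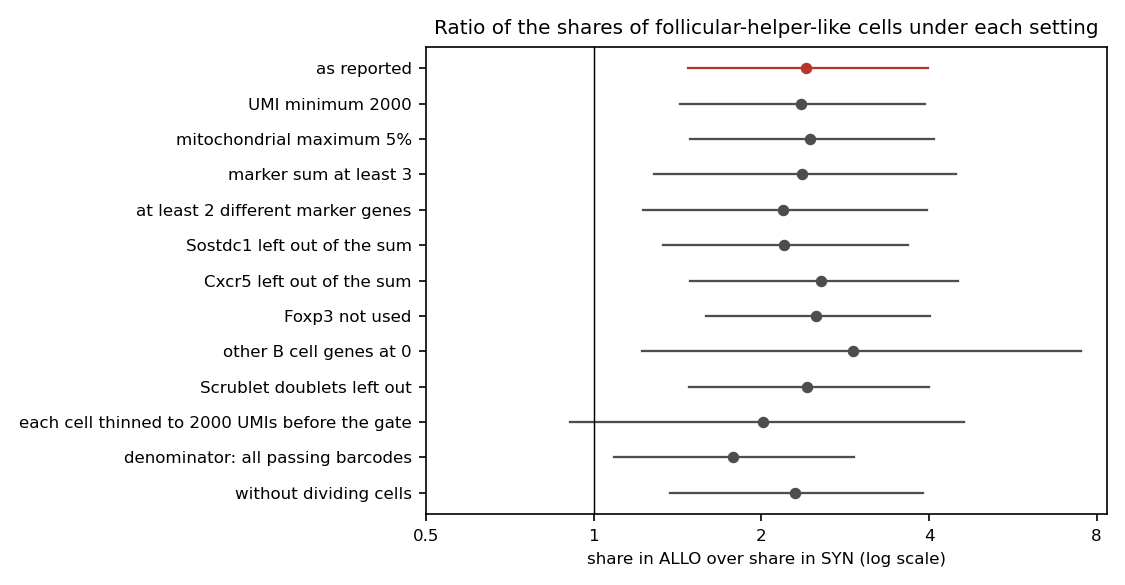
Share of follicular-helper-like cells in ALLO over that in SYN, on a log axis, as reported (red) and under 12 other settings. Points are ratios and bars exact 95% intervals; all points lie between 1.77 and 2.93, and only the setting that thins each cell to 2000 UMIs has an interval that includes 1.

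The rule left a graded edge. Of the members, 16 in ALLO and 10 in SYN had a sum of exactly 2, and 29 and 19 had 3 or more. Just outside, 33 ALLO and 40 SYN cells had a sum of 1. UMIs of at least 2 different rule genes were found in 31 of 45 ALLO and 22 of 29 SYN members. The median sum was 4 in both libraries and the highest 57 in ALLO and 36 in SYN.

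The 5 rule genes chose the cells, so their levels are a description. On mm10 Sostdc1 lies at chromosome 12, 36314139 to 36318452 (plus strand), Cxcr5 at chromosome 9, 44511787 to 44561877 (minus strand), and Tox2 at chromosome 2, 163203125 to 163324170 (plus strand). Pdcd1 led both libraries, with 126 UMIs in 33 of 45 ALLO members and 56 UMIs in 22 of 29 SYN members. Cxcr5, which guides cells to follicles, had 38 UMIs in 20 ALLO and 38 UMIs in 17 SYN members. Tox2, a high mobility group factor of the follicular helper programme, had 31 UMIs in 18 ALLO members and 29 UMIs in 16 SYN members. Il21, the cytokine that drives germinal centre B cells, was sparser, at 15 UMIs in 10 ALLO and 16 UMIs in 8 SYN members. Sostdc1, whose secreted product blocks BMP and Wnt ligands, was held by few cells in large amounts, with 77 UMIs in 13 ALLO members and 27 UMIs in 3 SYN members. A single cell carried 39 of the ALLO UMIs and another 18 of the SYN UMIs. No Th1-type cell, no cell with a rule gene sum of 1 and no CD8 T cell held a Sostdc1 UMI in either library. The rule lets Th1-type cells and cells with a sum of 1 hold at most 1 Sostdc1 UMI, so these zeros were partly set beforehand. Among B cells, 2 of 6847 in ALLO and 4 of 6659 in SYN held 1. Cxcr5 was at 140 CPM (counts of the gene scaled to the total UMIs of its class) in ALLO members and 232 CPM in SYN members, against 117 and 134 CPM in B cells, of which 32.3% and 33.1% held a UMI.

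**Figure D2:**
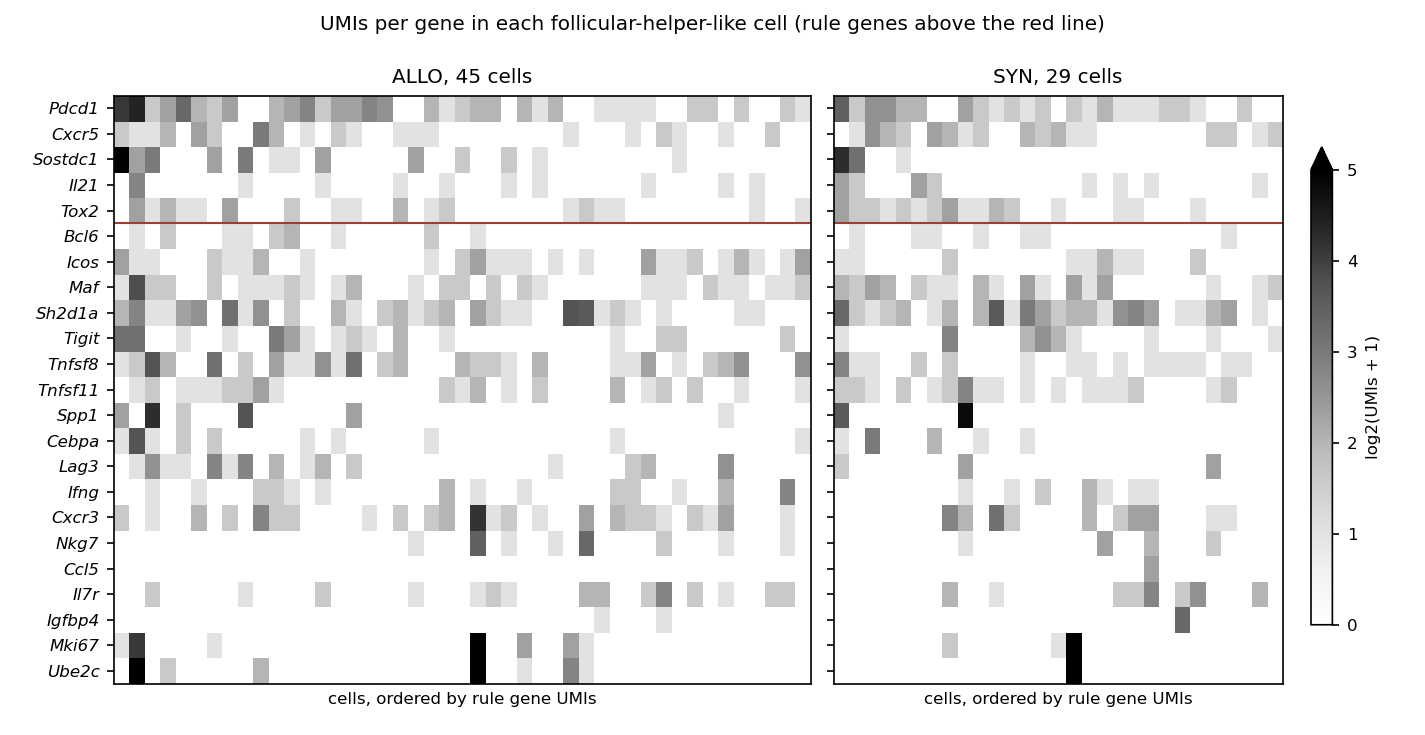
UMIs of 23 genes (rows) in each of the 45 ALLO members (left) and 29 SYN members (right), as log2(UMIs + 1) in grey, cells ordered by the sum of the rule genes (above the red line). Pdcd1 is spread over most cells, Sostdc1 and Spp1 sit in few cells, and Ccl5 is absent from all 45 ALLO members.

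The rule genes overlapped only in part. Pdcd1 and Tox2 were the most frequent pair, together in 14 of 45 ALLO and 13 of 29 SYN members, and Pdcd1 and Cxcr5 were together in 12 and 10. Pdcd1 alone admitted 10 ALLO and 4 SYN members, and Cxcr5 alone admitted 3 in each library. Only 1 cell in each library held all 5 genes.

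Helper genes that the rule did not use were higher in members than in marker-negative cells in both libraries. Of 15 listed genes of follicular help, 9 had enough UMIs to be compared and all 9 were at least 1.5-fold higher in both libraries, while 16.2% of all 2965 genes compared were. The median log2 ratio of these 9 was 1.61 in ALLO and 2.0 in SYN, and the median over all genes was 0.21 and 0.31. Cells were chosen by genes that are known to go with these, so the counts describe the class. A gene rare in either class had enough UMIs to be compared only by being high in the other. Counts of this list, and of the lists below that compare classes, were thus partly set in advance. The same minimum applied to all genes compared. At the stricter 2-fold limit, 6.68% of all genes compared were higher in members in both libraries and 1.79% were lower.

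Bcl6, the factor that defines the lineage, was thinly read and missed the minimum for comparison. It had 14 UMIs in 9 ALLO members and 7 UMIs in 7 SYN members, against 22 UMIs in 20 of 450 ALLO and 40 UMIs in 31 of 750 SYN marker-negative cells. The ratios were 4.56 (2.16 to 9.32) in ALLO and 3.28 (1.24 to 7.39) in SYN, so Bcl6 was higher in members than in marker-negative cells of either library. Ascl2, which acts early in the follicular helper programme, had 18 UMIs in 6 ALLO members and 5 UMIs in 3 SYN members and none in marker-negative cells of either library. Set against a floor of 3 counts over the marker-negative class, that is at least 43.0-fold higher in ALLO and at least 31.2-fold higher in SYN. In ALLO 12 of the 18 UMIs lay in 1 dividing cell, and without dividing cells the bounds were 21.9-fold and 35.1-fold. Pou2af1, a coactivator of octamer-binding factors, had 15 UMIs in 9 ALLO and 7 UMIs in 5 SYN members, with ratios of 6.72 (3.09 to 14.5) and 8.74 (3.01 to 22.8).

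Among transcription factors with enough UMIs, Maf stood out. This factor, which drives Il21 and Il4, was at 187 CPM in ALLO members and 29.2 CPM in ALLO marker-negative cells, a ratio of 6.41 (4.31 to 9.52). In SYN it was at 232 CPM in members and 17.9 CPM in marker-negative cells, a ratio of 12.9 (8.32 to 19.9). The share of cells with a Maf UMI, 60.0% of ALLO and 58.6% of SYN members, was 13.3% and 24.1% after thinning to 1000 UMIs, against 2.89% and 2.40% of thinned marker-negative cells. Of 14 measured regulators of the follicular helper state, 6 were at least 1.5-fold higher in members in both libraries (Batf, Bhlhe40, Maf, Nfatc1, Stat4, Tox) and 3 were lower (Bach2, Foxo1, Lef1), against 16.2% and 4.82% of all genes compared. Nfatc1, an NFAT factor that T cell receptor signals switch on, had ratios of 3.46 (2.69 to 4.42) in ALLO and 4.68 (3.52 to 6.15) in SYN. Tcf7, which keeps the potential for this fate, differed little, with ratios of 1.05 (0.885 to 1.23) and 1.06 (0.877 to 1.27). Foxo1, a brake on the programme that also sustains homing genes, was 3.19-fold (2.0 to 5.44) lower in ALLO and 1.97-fold (1.25 to 3.29) lower in SYN members. Prdm1, the antagonist of Bcl6, had 1 UMI in ALLO members and 0 in SYN members, too few to compare.

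Many contact molecules for B cells were higher. Of 17 measured helper surface genes, 12 were at least 1.5-fold higher in members in both libraries and 0 were lower, against 16.2% and 4.82% of all genes compared. Sh2d1a, the SLAM adaptor SAP that stabilises T to B cell contacts, was at 327 CPM in ALLO members and 90.2 CPM in ALLO marker-negative cells, and at 495 and 88.4 CPM in SYN. These are ratios of 3.62 (2.78 to 4.70) and 5.60 (4.31 to 7.20). Cd200, an inhibitory ligand of the immunoglobulin superfamily, had ratios of 6.18 (4.15 to 9.18) in ALLO and 8.24 (4.75 to 13.9) in SYN. The CD30 ligand gene Tnfsf8 had 6.16 (4.56 to 8.30) and 3.58 (2.16 to 5.69), and Icos 3.06 (2.10 to 4.40) and 2.10 (1.08 to 3.73). Cd40lg differed least of the 9 listed helper genes in SYN, at 1.53 (1.05 to 2.16), with 2.12 (1.61 to 2.76) in ALLO. The memory marker Cd44 was 4.37-fold (3.04 to 6.21) and 3.93-fold (2.45 to 6.09) higher in members. 

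The 12 genes that led the members in both libraries were Cebpa, Tigit, Slc22a15, Stx11, Tbc1d4, Tnfsf11, Gpm6b, Ptpn13, S100a6, Maf, Cybb and Cd200. They were ranked by the interval bound nearest to 1 in the weaker library. Cebpa had 23 UMIs in 10 ALLO members, 12 of them in 1 cell, and 13 UMIs in 5 SYN members. Against these, 1 UMI was found in 450 ALLO marker-negative cells and none in 750 SYN cells, ratios of 165 (26.8 to 6789) in ALLO and at least 81.1 in SYN. Tigit was at 165 CPM in ALLO members and 6.15 CPM in ALLO marker-negative cells, and at 134 and 3.92 CPM in SYN, ratios of 26.9 (14.0 to 55.8) and 34.3 (16.3 to 76.1). Tbc1d4, a Rab GTPase regulator, was the most abundant of them after S100a6, with 140 UMIs in 31 ALLO and 79 UMIs in 21 SYN members and ratios of 9.84 (7.57 to 12.8) and 18.5 (13.4 to 25.6). Tnfsf11, which encodes the cytokine RANKL, had ratios of 8.70 (5.12 to 14.9) and 12.8 (7.62 to 21.2). By the share of cells with a UMI, the 5 genes most like the rule genes, by the ratio of that share in members over marker-negative cells in 2 libraries, were Cebpa, Slc22a15, Tigit, Stx11 and Ptpn13. Tigit, for example, was found in 35.6% of ALLO and 31.0% of SYN members, against 2.22% and 1.33% of marker-negative cells.

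**Figure D3:**
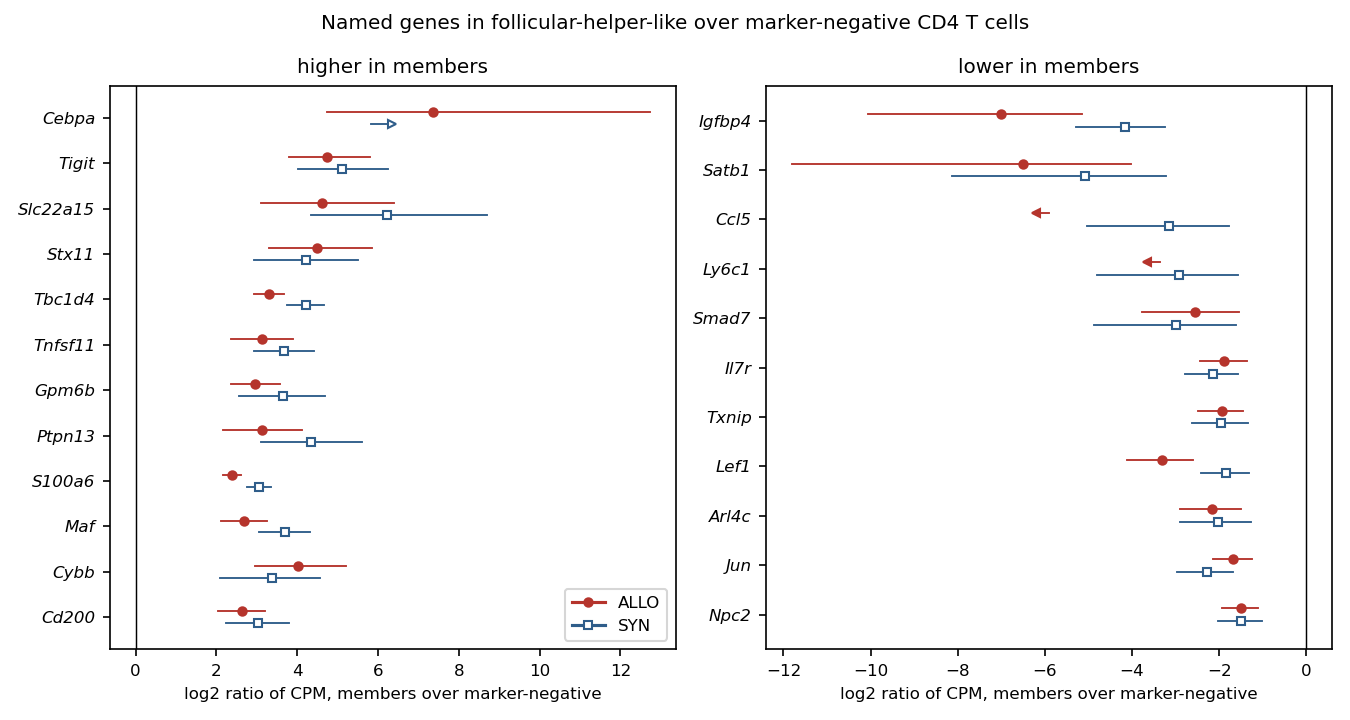
Log2 ratio of CPM in follicular-helper-like over marker-negative cells for the named genes that were highest (left) and lowest (right) in members, ALLO as filled circles and SYN as open squares, with exact 95% intervals. Triangles mark ratios set against a floor of 3 counts because 1 class held 0 UMIs. Every interval lies on the same side of 0 in both libraries. This follows from the choice of genes, which were ranked by the interval bound nearest to 1 in the weaker library.

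Inhibitory receptors were higher beside Pdcd1. The list used also holds Cd200, a ligand, and Tox, a transcription factor. Of its 7 measured genes, 6 were at least 1.5-fold higher in members in both libraries (Btla, Cd200, Ctla4, Lag3, Tigit, Tox) and 0 were lower, against 16.2% and 4.82% of all genes compared. Lag3 had 41 UMIs in 15 ALLO and 10 UMIs in 3 SYN members, with ratios of 13.4 (7.77 to 23.5) and 62.4 (16.1 to 353). Havcr2, the gene of TIM-3, had 0 UMIs in members and in marker-negative cells of both libraries. The 8 measured genes of a list drawn from aged and chronically stimulated helper cells were each at least 1.5-fold higher in both libraries, where 16.2% of all genes compared were: Bhlhe40, Cebpa, Itgb1, Lag3, S100a4, S100a6, Spp1 and Tnfsf8. Cebpa and Lag3, with 1 and 22 UMIs in ALLO marker-negative cells and 0 and 3 in SYN, entered this count only by being high in members. So did Spp1 in SYN, where marker-negative cells held 0 UMIs. Against Th1-type cells, defined below, 4 of 8 measured genes of this list were at least 1.5-fold higher in both libraries (Cebpa, Lag3, Spp1, Tnfsf8). In that comparison 0 were lower, where 5.68% of all genes compared were higher and 6.4% lower. Summed over the 12 listed genes, ALLO members were at 3233 CPM and ALLO Th1-type cells at 2341 CPM. In SYN the sums were 2401 and 2001 CPM. Spp1, the osteopontin gene, rested on very few cells, with 41 UMIs in 6 ALLO members and 38 UMIs in 2 SYN members, 27 of them in 1 cell. S100a6, a calcium-binding protein of memory cells, was broader, at 1077 CPM in 30 of 45 ALLO and 831 CPM in 17 of 29 SYN members, ratios of 5.21 (4.47 to 6.07) and 8.35 (6.77 to 10.3).

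Genes of naive and recirculating T cells were lower. Of 10 measured naive genes, 8 were at least 1.5-fold lower in members in both libraries and 0 were higher, against 4.82% of all genes compared. Igfbp4, a leading naive gene, had 2 UMIs in 45 ALLO members and 1839 in marker-negative cells, 7.35 against 943 CPM. In SYN it had 9 UMIs, all in 1 member, and 3013 in marker-negative cells, 55.0 against 983 CPM. Satb1, a chromatin organiser, had 1 UMI in ALLO and 2 in SYN members and was 90.3-fold (16.1 to 3572) and 33.8-fold (9.33 to 279) lower. The egress and T zone genes moved with them. Ccr7, which guides cells to the T zone, was 2.93-fold (2.08 to 4.27) lower in ALLO members and 2.71-fold (1.83 to 4.21) lower in SYN members. S1pr1, which leads cells out of the spleen, was 2.02-fold (1.37 to 3.11) and 1.65-fold (1.06 to 2.72) lower. Gpr183, which draws cells to the outer follicle, was not past 1.5-fold in both libraries, with ratios of 1.52 (0.992 to 2.27) and 1.36 (0.808 to 2.17).

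Regulatory T cell genes other than Foxp3 were higher as well. Of 6 measured, 5 were at least 1.5-fold higher in members in both libraries (Capg, Ctla4, Ikzf2, Nrp1, Tnfrsf4) and 0 were lower, against 16.2% and 4.82% of all genes compared. Ikzf2, the gene of Helios, was at 235 CPM in ALLO members and 37.4 CPM in ALLO marker-negative cells, and at 147 and 22.2 CPM in SYN, ratios of 6.28 (4.42 to 8.91) and 6.61 (3.97 to 10.7). Nrp1 had ratios of 7.48 (4.87 to 11.5) and 7.28 (3.63 to 13.8). Foxp3 was at 0 in every member by the rule, and Il2ra, the other defining receptor of regulatory cells, had 3 UMIs in ALLO and 0 in SYN members. Summed over the 10 listed genes, the regulatory level was 985 CPM in ALLO members and 283 CPM in ALLO marker-negative cells, and 648 and 194 CPM in SYN. Whether some members were regulatory cells with no Foxp3 UMI read was not tested.

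Markers of B, invariant NKT, gamma delta T, NK and myeloid cells summed to levels near or below those of marker-negative cells. The 13 B cell genes summed to 595 CPM in ALLO members and 562 CPM in ALLO marker-negative cells, and to 550 and 498 CPM in SYN, with Ms4a1, Ly6d and Ebf1 at 0 in ALLO members. Invariant NKT genes gave 1 UMI in members of each library, with Trav11, Traj18 and Zbtb16 at 0. Gamma delta genes gave 0 UMIs in ALLO and 1 UMI in SYN members, and NK genes 2 UMIs and 0, against 288 and 63 UMIs in marker-negative cells. Myeloid genes summed to 84.5 CPM in ALLO members and 99.5 CPM in marker-negative cells, and to 122 and 228 CPM in SYN. Th2 genes went the other way, at 125 CPM in ALLO members and 46.7 CPM in ALLO marker-negative cells, and at 159 and 53.8 CPM in SYN. Of the 6 listed, only Gata3 had enough UMIs to be compared, with log2 ratios of 1.33 and 1.32, and Il5 and Il13 had 0 UMIs in members. Genes of handling stress summed to 2708 CPM in ALLO members and 3675 CPM in ALLO marker-negative cells, and to 3098 and 4192 CPM in SYN. 

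Th17 genes, the pathway named in the title of the series, were almost unread in members. The 7 listed genes gave 1 UMI in ALLO members and 12 UMIs in 3 SYN members, 10 of them in 1 cell. These sums were 3.67 CPM in ALLO members and 4.61 CPM in ALLO marker-negative cells, and 73.3 and 4.24 CPM in SYN. Il17a and Il17f had 0 UMIs in members and in marker-negative cells of both libraries. For either gene, 0 of 45 ALLO and 0 of 29 SYN members allows shares of cells with a UMI of up to 6.67% and 10.3%, by the limit of 3 counts.

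Members shared part of the Th1 programme. The Th1-type class was defined by at least 2 UMIs of Ccl5, Nkg7, Cxcr3 and Ifng together, with a rule gene sum under 2, and held 81 ALLO and 71 SYN cells. The same sum was reached by 20 of 45 ALLO members, 44.4% (29.6 to 60.0%), and 11 of 29 SYN members, 37.9% (20.7 to 57.7%), against 15.1% and 8.00% of marker-negative cells. These members reached it mainly without Ccl5. The chemokine gene Ccl5 had 0 UMIs in 45 ALLO members and 4 UMIs in 1 of 29 SYN members, whereas marker-negative cells held 1581 UMIs in 45 of 450 ALLO cells and 661 in 51 of 750 SYN cells. By UMIs, Ccl5 was thus at least 73.5-fold lower in ALLO members than in marker-negative cells, against a floor of 3 counts. In SYN members it was 8.83-fold (3.43 to 32.5) lower. Few cells held these UMIs, so the folds are less certain than counting error shows. By cells with a UMI, members were 0 of 45 in ALLO and 1 of 29 in SYN, against 45 of 450 and 51 of 750. Cxcr3, the receptor for interferon-induced chemokines, went the other way, at 246 CPM in ALLO members and 63.6 CPM in ALLO marker-negative cells, a ratio of 3.87 (2.83 to 5.25), and 6.24 (4.10 to 9.28) in SYN. Ifng was at 99.2 and 42.6 CPM in ALLO, a ratio of 2.33 (1.45 to 3.64), and 5.35 (2.36 to 11.0) in SYN. Tbx21, the Th1 master regulator, was thin in members, with 14 UMIs in 5 ALLO and 4 UMIs in 2 SYN cells.

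Set against Th1-type cells, members differed in fewer genes. At the 2-fold limit 2.06% of 3204 genes compared were higher in members in both libraries and 1.94% were lower, and at 1.5-fold 5.68% and 6.4%. NK and myeloid genes were higher in Th1-type cells, where few cells held most of their UMIs, and B cell genes were not. NK genes were at 7.35 CPM in ALLO members and 810 CPM in ALLO Th1-type cells, and at 0 and 125 CPM in SYN, while 1 ALLO Th1-type cell held 131 of the 288 UMIs. Myeloid genes were at 84.5 CPM in ALLO members and 158 CPM in ALLO Th1-type cells, and at 122 and 1462 CPM in SYN, where 1 Th1-type cell held 381 of 421 UMIs. B cell genes were at 595 CPM in ALLO members and 585 CPM in ALLO Th1-type cells, and at 550 and 511 CPM in SYN. Their part in the differences was not tested. Follicular helper genes outside the rule were at least 1.5-fold higher for 5 of 9 measured (Btla, Cd200, Maf, Sh2d1a, Tnfsf8) and lower for 0, with median log2 ratios of 0.89 in ALLO and 1.27 in SYN, where the median over all genes was -0.01 and 0.04. Cd200 was at 184 CPM in ALLO members and 36.6 CPM in ALLO Th1-type cells, a ratio of 5.02 (2.69 to 10.1), and at 134 and 45.2 CPM in SYN, a ratio of 2.98 (1.43 to 6.43). Sh2d1a had ratios of 2.37 (1.66 to 3.43) and 2.42 (1.71 to 3.44). Of 8 measured genes of the inhibitory receptor list, which includes Cd200 and Tox, 6 were higher and 1, Cd160, was lower. Of 17 measured helper surface genes, 6 were at least 1.5-fold higher in both libraries (Btla, Cd200, Il6st, Sh2d1a, Tnfrsf4, Tnfsf8) and 0 were lower. Izumo1r and Icos split the libraries, Izumo1r with ratios of 1.18 (0.933 to 1.5) in ALLO members and 3.32 (2.41 to 4.60) in SYN members, Icos with 1.60 (1.00 to 2.55) and 0.715 (0.344 to 1.40).

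The 10 leading genes over Th1-type cells were Cebpa, Hist1h1e, Tigit, Matk, Tbc1d4, Rgs10, Slc22a15, Hif1a, Dbi and H2afx. Cebpa had 0 UMIs in the Th1-type cells of either library and was at least 10.0-fold higher in ALLO and at least 7.62-fold higher in SYN members. Rgs10, a regulator of G protein signals, was in 27 of 45 ALLO and 22 of 29 SYN members, with ratios of 3.56 (2.42 to 5.35) and 3.95 (2.65 to 5.98). Hif1a, the hypoxia-responsive factor, had 3.87 (2.80 to 5.42) and 3.23 (2.12 to 4.98). The histone genes H2afx and Hist1h1e depended on dividing cells. Without them the log2 ratio of H2afx was -0.58 in ALLO and -0.64 in SYN, and that of Hist1h1e 0.63 in ALLO and 1.53 in SYN, against 2.81 and 2.87 with all members. The lowest 10 were Satb1, Ly6c2, Cxcr6, Ccr2, Ctsw, Il7r, Txnip, Id2, Jun and Arl4c. Id2, which opposes the follicular helper programme, was 3.14-fold (2.22 to 4.53) lower in ALLO and 4.42-fold (2.86 to 7.16) lower in SYN members, and the tissue homing receptor gene Cxcr6 8.71-fold (4.24 to 20.8) and 7.07-fold (3.29 to 18.1) lower. Of 8 measured Th1 genes outside the rule of that class, 6 were at least 1.5-fold lower in members in both libraries (Cxcr6, Hopx, Id2, Il18rap, Il2rb, Tbx21) and 0 were higher, against 6.4% and 5.68% of all genes compared.

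**Figure D4:**
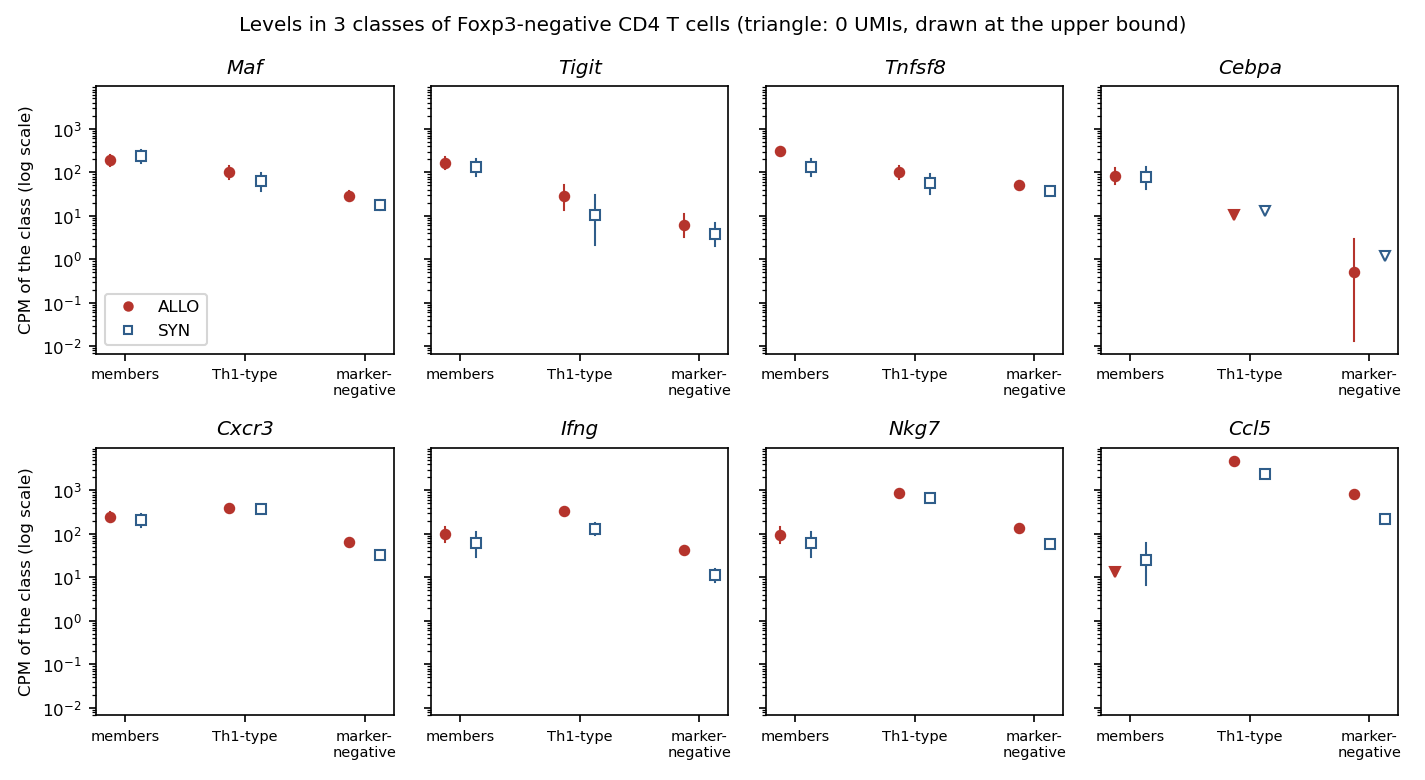
CPM of 8 genes on a log axis in members, Th1-type cells and marker-negative cells, ALLO as filled circles and SYN as open squares with exact Poisson 95% intervals. Maf, Tigit and Cebpa peak in members of both libraries. Cxcr3, Ifng, Nkg7 and Ccl5 chose the Th1-type cells, so their levels in that class are a description. Ccl5 is at 0 UMIs in ALLO members (triangle at the upper bound).

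Members of the ALLO library were set against members of the SYN library gene by gene. Of 3489 genes with at least 20 UMIs over both, 6.25% were at least 2-fold higher in ALLO and 3.93% at least 2-fold lower. The 12 highest were Hist1h2ae, Stmn1, Hist1h2ab, Pclaf, Hist1h1b, Hist1h3e, Hmgn2, Eea1, Cks1b, Mcm5, Cacna1d and Hist2h2ac, of which all but Eea1 and Cacna1d are histone, replication or mitosis genes. Hist1h2ae, a core histone gene, had 219 UMIs in 7 ALLO members, 85 of them in 1 cell, and 13 UMIs in 2 SYN members, a ratio of 10.1 (5.80 to 19.3). Dividing cells, defined by at least 3 UMIs over Mki67, Top2a, Birc5, Ube2c, Cdk1 and Ccnb2, were 6 of 45 ALLO members, 13.3% (5.05 to 26.8%), and 2 of 29 SYN members, 6.90% (0.846 to 22.8%). They were deep cells, and held 37.8% of the UMIs of ALLO members and 11.3% of those of SYN members. Division was more frequent than in marker-negative cells, of which 2.0% in ALLO and 0.133% in SYN were dividing, ratios of 6.67 (1.95 to 21.0) and 51.7 (2.69 to 3052). Dividing members had medians of 18553.5 UMIs in ALLO and 9275 in SYN, and a deep cell reaches the rule gene sum more easily. The part of depth in these ratios was not tested.

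Without dividing cells fewer genes passed the limit. Of 218 genes at least 2-fold higher in ALLO members, 62 were still compared and past the limit, and of 137 lower, 57 were. In all 133 were then higher and 87 lower, so some were not called before. The genes that dropped out were of both kinds. Hmgn2 was still compared and its ratio fell to 1.17 (0.625 to 2.24). Stmn1 kept a ratio of 7.71 (1.07 to 338) but had too few UMIs left to be compared. How many genes lost a 2-fold ratio was thus not given by these counts. Eea1, an early endosome tether, had 71 UMIs in 23 of 39 ALLO members and 9 UMIs in 7 of 27 SYN members, a ratio of 6.76 (3.37 to 15.4). It was also higher in ALLO among marker-negative cells, at 2.48 (1.57 to 3.95), as was Cacna1d, a calcium channel gene, at 11.1 (2.79 to 96.9) in members and 5.34 (1.89 to 18.5) in marker-negative cells. The memory gene S100a4 was at 762 CPM in ALLO and 186 CPM in SYN members, a ratio of 4.10 (2.69 to 6.45), beside 2.67 (2.15 to 3.32) in marker-negative cells. Cxcr4, the receptor that holds cells in the germinal centre dark zone, had 27 UMIs in 14 ALLO and 5 UMIs in 4 SYN members, a ratio of 4.63 (1.76 to 15.4), and in marker-negative cells the ratio was 0.641 (0.408 to 0.985).

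**Figure D5:**
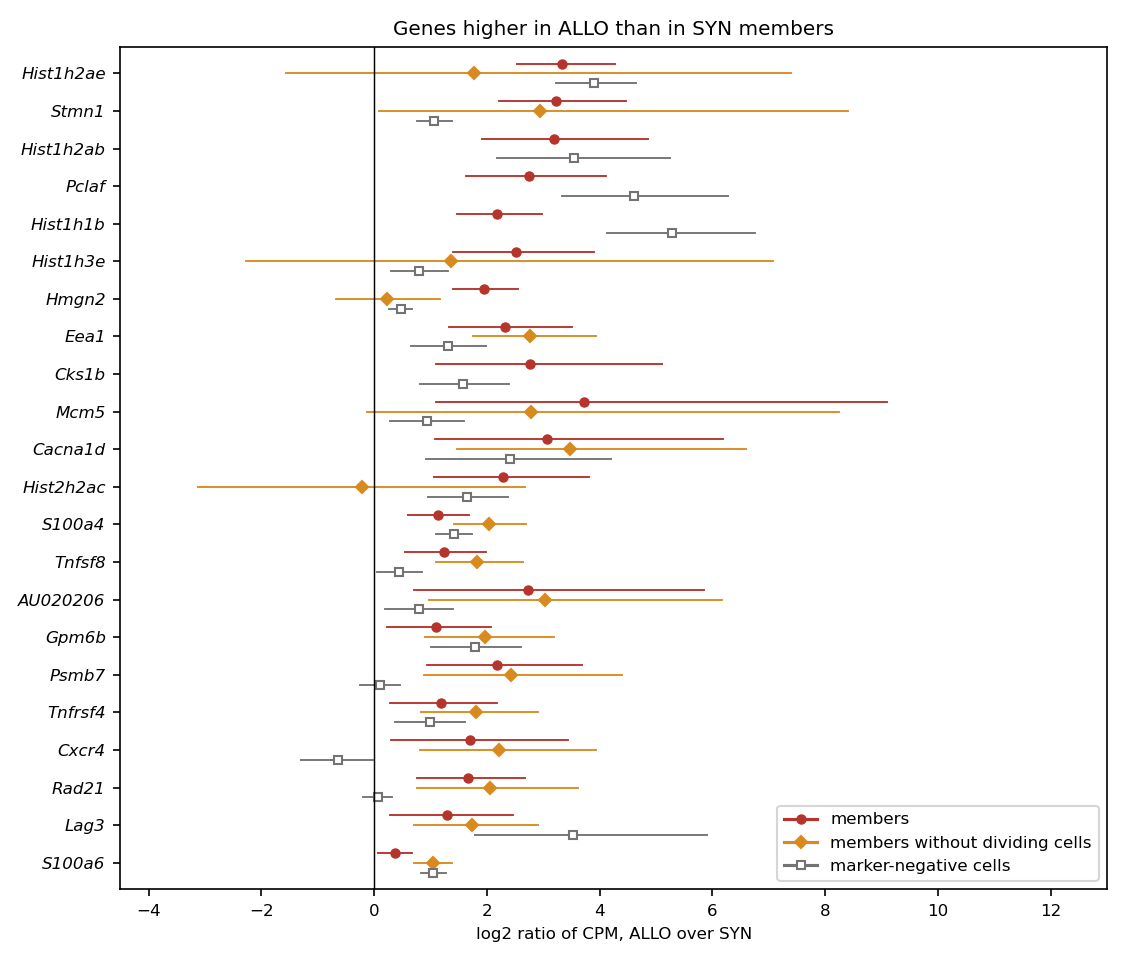
Log2 ratio of CPM in ALLO over SYN for the genes that led in members with all cells or without dividing cells, in members (red circles), members without dividing cells (orange diamonds) and marker-negative cells (grey squares), with exact 95% intervals. Histone genes have wide intervals or no point without dividing cells. Eea1, Cacna1d, Tnfsf8 and Cxcr4 lie above 0 there, but they were among the highest in the ranking without dividing cells. Tnfsf8 and Cxcr4 entered the figure by that ranking only, so this follows from the choice. A point is left out where too few UMIs were read.

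Contact and costimulatory genes were split between the libraries. Of 17 measured helper surface genes, 3 were at least 1.5-fold higher in ALLO members (Icos, Tnfrsf4, Tnfsf8) and 3 lower (Il6ra, Il6st, Sh2d1a), near the 15.5% and 14.0% of all genes compared. Tnfsf8 was at 316 CPM in ALLO and 134 CPM in SYN members, a ratio of 2.35 (1.46 to 3.94), which was 3.56 (2.14 to 6.23) without dividing cells and 1.37 (1.03 to 1.80) in marker-negative cells. Icos was at 162 and 79.4 CPM, a ratio of 2.04 (1.08 to 4.12), and the OX40 gene Tnfrsf4 at 180 and 79.4 CPM, a ratio of 2.27 (1.21 to 4.55). Lag3 had 41 UMIs in 15 ALLO and 10 UMIs in 3 SYN members, a ratio of 2.47 (1.21 to 5.52), beside 11.5 (3.46 to 60.1) in marker-negative cells. Il4, the cytokine for switching to IgG1 and IgE in mice, had 15 UMIs in 5 ALLO members and 1 UMI in 1 SYN member, a ratio of 9.02 (1.39 to 380). It was under the minimum of 20 UMIs for comparison, and 9 of the 15 UMIs lay in 1 cell. Over the 13 measured helper genes outside the rule, 4 were at least 1.5-fold higher in ALLO (Angptl2, Ascl2, Icos, Tnfsf8) and 1 lower (Sh2d1a), where 15.5% and 14.0% of all genes compared were. Ascl2 rests on a dividing cell, with a ratio of 2.16 (0.775 to 7.46) with all members and 1.03 (0.262 to 4.26) without dividing ones.

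For several core genes the interval of ALLO over SYN members included 1. Bcl6 had a ratio of ALLO over SYN members of 1.20 (0.454 to 3.52), Maf 0.807 (0.520 to 1.26), Cebpa 1.06 (0.517 to 2.29) and Cxcr3 1.19 (0.773 to 1.85). Differences within these bounds were not detectable at this depth. The rule genes, as a description, were at 463 CPM in ALLO and 342 CPM in SYN for Pdcd1, 140 and 232 CPM for Cxcr5, and 55.1 and 97.8 CPM for Il21. Tigit had a ratio of 1.23 (0.723 to 2.15) with all members and 2.11 (1.13 to 4.15) without dividing cells.

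Genes lower in ALLO members were mostly sparse. Among the 12 lowest were Nxpe3, Nav2, Mtln, Gramd1a, Trappc9, Ddit4, Ivd, Lef1, Zfp36l2, Prmt3 and Sit1. Ddit4, a stress and glucocorticoid gene, was 2.33-fold (1.61 to 3.40) lower in ALLO members and 1.59-fold (1.39 to 1.82) lower in ALLO marker-negative cells. Nxpe3 had 10 UMIs in 9 of 45 ALLO and 26 UMIs in 18 of 29 SYN members, 4.32-fold (2.02 to 10.0) lower, with a ratio of 1.00 (0.825 to 1.22) in marker-negative cells. Xcl1, a chemokine gene from the list of cytokines, had 1 UMI in ALLO members and 45 UMIs in SYN members. Those lay in 3 cells, with 41 of them in 1 cell.

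Members with a Sostdc1 UMI differed from other members in ALLO. SYN, with 3 such cells, was not used for this comparison. They were 13 cells, with a median of 4009 UMIs, against 32 cells with 4087.5. At the 2-fold limit 7.96% of 2224 genes compared were higher in them and 6.92% lower, and at 1.5-fold 20.1% and 17.9%. The leading genes were Ppp1r14b, Tigit, Nfkbia, Ctla4, Srgn and Eea1. Ppp1r14b had 84 of its 92 UMIs in 1 cell, and its ratio of 7.29 was 0.721 without dividing cells. Nfkbia, the inhibitor induced by NF-kB, had 69 UMIs in 10 of 13 cells with Sostdc1 and 56 UMIs in 21 of 32 without, a ratio of 3.13 (2.17 to 4.53), but 37 of the 69 lay in 1 cell. Tigit had 29 and 16 UMIs, a ratio of 4.60 (2.42 to 9.07), which was 2.96 (1.47 to 6.06) without dividing cells. Ctla4 had 13 of its 25 UMIs in 1 cell, and its ratio of 3.96 (2.03 to 7.95) was 1.93 (0.816 to 4.5) without dividing cells. Spp1 had 34 UMIs in 3 cells with Sostdc1 and 7 UMIs in 3 without. Of 8 measured genes of the aged and chronic helper list, 6 were at least 1.5-fold higher with Sostdc1 and 0 lower. Cebpa was among the 6, and 12 of its UMIs with Sostdc1 lay in 1 dividing cell. The count for this list without dividing cells is not given here. Of 6 position genes 1 was higher (Cxcr4) and 4 lower (Ccr7, Cxcr3, Gpr183, Selplg). Cxcr3 had 10 UMIs in 6 cells with Sostdc1 and 57 UMIs in 18 cells without, 130 against 292 CPM. The lowest genes were Rasgrp2, Actn1, St6gal1, Itgb7, Hist2h2ac and Vim. Vim, with 90 of its 161 UMIs without Sostdc1 in 1 cell, was 3.02-fold lower with all members and 1.12-fold lower without dividing cells, and Hist2h2ac then had 0 and 3 UMIs. Rasgrp2 and Actn1, at 0 UMIs with Sostdc1, were at least 4.20-fold and 2.89-fold lower, and at least 1.48-fold and 1.63-fold lower without dividing cells. Itgb7, an integrin chain for gut homing, had 4 UMIs with Sostdc1 and 55 without, 5.42-fold (2.0 to 20.6) lower.

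Members used many T cell receptor segments, which are read here from expression and do not define clones. A beta variable segment was read in 40 of 45 ALLO members, spread over 13 segments, and in 19 of 29 SYN members, over 11. Trbv3 was the most frequent in both, in 6 of 40 ALLO members, 15.0% (5.71 to 29.8%), and 4 of 19 SYN members, 21.1% (6.05 to 45.6%). In marker-negative cells Trbv13-2 led, at 12.6% in ALLO and 13.8% in SYN. Trbv3 was at 7.43% and 10.9% there, values within the intervals of the members. Both chains were read in 28 ALLO and 17 SYN members, which held 23 and 16 different pairs of variable segments, and no pair was in more than 2 cells of a library.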

How the data were processed

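Spleen cells of 1 ALLO and 1 SYN library were sequenced with 10x 5′ chemistry. The deposited matrices hold raw UMI counts per gene and barcode; per the submitters' processing notes the authors used Cell Ranger 6.0.2, FastQC and the mm10 build. The gene annotation and the alignment settings were not given in the sources used here. Counts were summed per class of cells and scaled to CPM; the median member had 1.88% mitochondrial UMIs in ALLO and 1.64% in SYN. Members, marker-negative and Th1-type cells were defined as in the text above, and members and gene lists were chosen with earlier results of these data known.

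A gene was compared between classes when the first class held at least 10 UMIs in each library, observed or expected from the other class. Between libraries it was compared when both together held at least 20. Calls needed a 2-fold, lists a 1.5-fold ratio. Named genes were the 12 highest and lowest (10 against Th1-type cells, 6 for the Sostdc1 split) by the interval bound nearest to 1, with a UMI in at least 5 cells, leaving out the rule genes, receptor, immunoglobulin, mitochondrial, ribosomal and predicted genes; members of the lists could be named too, and a few genes are not reported here. The Sostdc1 split was ranked in ALLO, where the plan had pooled both libraries. Scrublet at a score of 0.25 marked 2.40% of ALLO and 0.664% of SYN barcodes as doublets and no member; none were removed in the values reported. The calculation was tested on simulated data. Python 3.11.15, numpy 2.4.6, scipy 1.17.1, pandas 2.3.3, scanpy 1.11.5 and matplotlib 3.10.9 were used. Alternatives covered the gate, the marker sum, depth, doublets and dividing cells.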

Additional observations from a re-analysis of the deposited data

Results flagged for a closer look

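Nxpe3 differed between members and marker-negative cells in opposite directions in the 2 libraries. Its log2 ratio in members over marker-negative cells was -1.26 in ALLO and 0.86 in SYN. With 1 library per group the difference between the libraries was not tested.

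Regulatory cells, which the rule left out, also held the marker sum. Among Foxp3-positive CD4 T cells, 8 of 45 in ALLO, 17.8% (8.00 to 32.1%), and 3 of 49 in SYN, 6.12% (1.28 to 16.9%), had at least 2 UMIs of the 5 rule genes, a ratio of 2.90 (0.697 to 17.0). None of these cells held a Sostdc1 UMI.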

How the results depend on the processing

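The share of members stayed higher in ALLO than in SYN under the 12 alternatives run, with ratios from 1.77 to 2.93. The shares in ALLO and SYN were 5.49% and 2.32% with a sum of at least 3, 4.44% and 2.20% thinned to 2000 UMIs, and 0.460% and 0.259% over all passing barcodes, and the ALLO share was 5.87% with 2 different rule genes. Counts of genes past 2-fold depended on the UMI minimum and on depth. Over marker-negative cells, against 198 higher and 53 lower, 39 and 11 were called with other B cell genes at 0, 20 and 11 thinned to 2000 UMIs, 64 and 22 with at least 50 UMIs (25 expected), and 918 and 157 with at least 1 UMI. Over Th1-type cells, against 66 and 62, these settings gave 14 and 11, 11 and 6, 17 and 20, and 255 and 224. For ALLO over SYN members, against 218 and 137, they gave 111 and 33, 26 and 21, 44 and 20, and 983 and 1228. That comparison also gave 136 higher with 2 different rule genes, 343 higher with Foxp3 not used, and 133 higher and 87 lower without dividing cells, an alternative chosen after seeing the data, as was the Scrublet score. Single genes reversed as log2 ratios. With other B cell genes at 0 these were, over Th1-type cells in SYN, H2afx at -0.90 and Satb1 at 0.29, and, ALLO over SYN, Nav2 at 0.21. Thinned to 2000 UMIs they were H2afx at -0.55 and Satb1 at 0.21 in SYN, Ccr2 at 0.64 in ALLO, and Stmn1 at -1.50 for ALLO over SYN. Leaving out the cell with the most UMIs gave H2afx -0.38 in SYN, and leaving out dividing cells gave H2afx -0.58 in ALLO and -0.64 in SYN and Hist2h2ac -0.22 for ALLO over SYN. Fewer cells or UMIs remain in the thinned and B cell settings; the cause was not tested. Of the other values for single genes, 1665 kept their direction and moved little and 139 moved. No paired analysis was possible because each group is 1 library, and for the same reason no replicate could be left out. With 45 and 29 members, genes of a few UMIs carry wide intervals.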

Other observations

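The marker sum of at least 2 was also reached by 5 of 588 CD8 T cells in ALLO, 0.850%, and 14 of 607 in SYN, 2.31%. Cxcr5 was present in 5 of those 5 ALLO cells and 10 of those 14 SYN cells. Among T cells with no Cd4, Cd8a or Cd8b1 UMI, 6 of 506 in ALLO, 1.19%, and 12 of 801 in SYN, 1.5%, reached it.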
